A study of Mus musculus with 18 samples.

Results

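The 10 genes described here mark the principal neurons of the hippocampal fields and were followed in mice with altered miR-132 and miR-212. Dsp, Calb1, Prox1, C1ql2 and C1ql3 were taken as markers of dentate granule cells, Mpped1, Wfs1 and Fibcd1 of CA1, Grik4 of CA3 and Pcp4 of CA2. They are 10 of the 11738 gene symbols listed in any of the 3 count tables. They were chosen by name, as symbols, but with earlier results of these data known. All 10 were listed and passed the filter on low counts in the comparisons of the deletion and of tTA::miR132. For tTA::miR212, 9 were listed and passed it, and C1ql2 was not among the rows.

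Polyadenylated RNA of whole hippocampus was sequenced from mice of the C57BL/6 background. The deletion group (CaMKII-Cre::miR-132/212 f/f, labelled miR132/212 cKO) lacks both microRNA genes where a CaMKII-driven Cre recombinase is active, which is in excitatory forebrain neurons. The tTA::miR132 and tTA::miR212 groups carry a transgene for miR-132 or miR-212 that depends on the tetracycline transactivator. Each of these groups was set against its own nontransgenic controls, which also lack the recombinase or the transactivator, so an effect of either driver and an effect of the microRNA cannot be told apart. The age of the animals and the promoter that drives the transactivator were not stated in the labels. Libraries were made from pooled cDNA, with 6 animals pooled into 3 replicates per group. The labels list 18 samples, and the tables hold 14 libraries, with 2 per group for the deletion and tTA::miR132 and 3 per group for tTA::miR212. P-values measure the spread between these libraries.

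The hippocampus passes signals along a chain of fields. Granule cells of the dentate gyrus send their mossy fibres to CA3, and CA3 pyramidal cells project to CA1, while CA2 is a narrow field between CA3 and CA1. Each field has its own set of strongly expressed genes, although few are exclusive: Calb1 is also made by CA1 pyramidal cells and some interneurons, and Pcp4 also by granule cells. In RNA of a whole hippocampus, fewer cells of a type and less RNA per cell cannot be told apart.

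The microRNAs that were deleted or raised are shown because they share the part that pairs with messenger RNAs. Their mature sequences (RefSeq, build GRCm38.p6) are encoded close together on the plus strand of chromosome 11, miR-212-3p at 75173443 to 75173464 and miR-132-3p at 75173723 to 75173744. Capitals mark the seed, bases 2 to 8.
miR-132-3p: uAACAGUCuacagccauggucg
miR-212-3p: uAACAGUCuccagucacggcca
The seeds are the same 7 bases, AACAGUC, and the sequences after them differ. The complement of the seed, GACTGTT, was searched on the coding strand of the longest annotated 3' untranslated region of each gene, with none of the 10 markers holding a match. Among all genes with such a region, 13.4% held a match in the deletion table, 13.3% in the tTA::miR132 table and 15.8% in the tTA::miR212 table. The form ACTGTTA, which overlaps the first by 6 bases, had no match in the markers either, against 12.6%, 12.5% and 13.9% of all genes. The regions searched ranged from 276 bases for Pcp4 to 3301 bases for Calb1. The table entry of C1ql3 runs 1570 bases past the annotated end of the gene, and neither form occurred in that stretch.

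Libraries of the deletion and its controls held 8190899 to 9702801 counts, those of tTA::miR132 8301385 to 14772907, and those of tTA::miR212, over the transcript used per symbol, 1299376 to 1544926. Levels are given as CPM (counts scaled to the size of the library), and fold changes as log2 of the deletion or transgenic group over control from edgeR's quasi-likelihood test, with a gene called at an adjusted p under 0.05. No gene was called in any of the 3 comparisons, so the share called was 0% of 10487, 10734 and 4618 genes tested. The estimated coefficient of variation between libraries was 74.2% in the deletion comparison, 60.7% with tTA::miR132 and 8.58% with tTA::miR212. The first deletion library had 1047 of 10541 genes at a count of 0, against 73 to 120 in the other libraries of that table. In the tTA::miR132 table the second control library had 485 of 10799 genes at 0, against 92 to 262 in the others. The tables were made separately and on different gene models, so each test stays within a table.

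**Figure D1:**
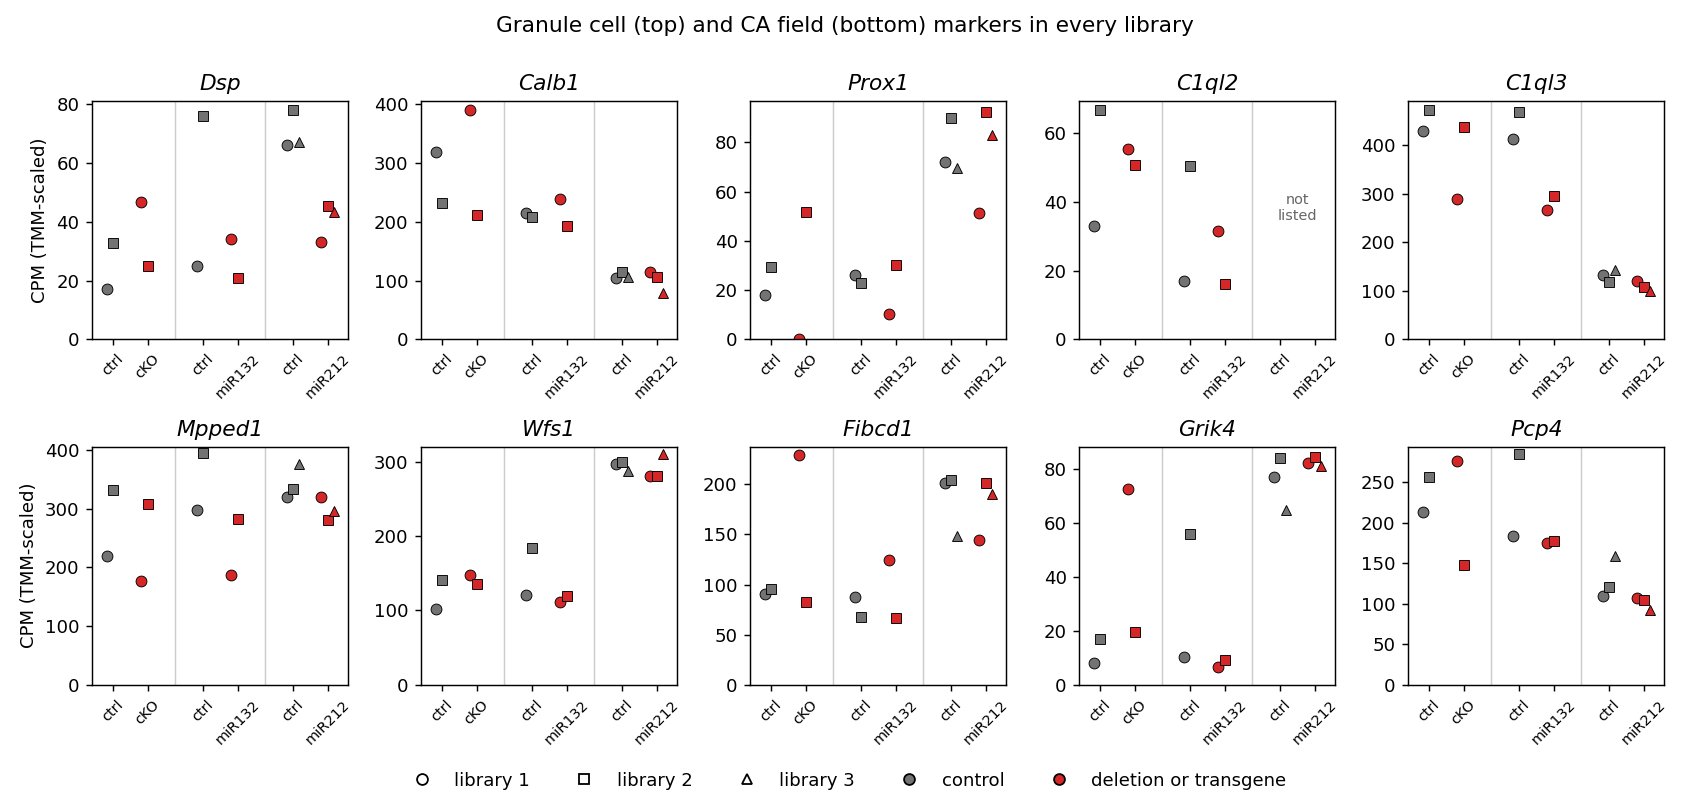
Level of each marker in every library, in CPM on a linear axis from 0, with granule cell markers above and CA field markers below. Grey points are control libraries and red points deletion (cKO), tTA::miR132 or tTA::miR212 libraries; in the tTA::miR212 part, the 3 red Dsp points, 33.0 to 45.4 CPM, sit below the 3 grey ones, 66.0 to 78.1 CPM.

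In tTA::miR212 hippocampus, the most precise of the comparisons, Dsp was the granule cell marker that stood lowest against control, and Prox1 and Calb1 lay near their control levels. Dsp encodes desmoplakin, the protein that ties desmosomes to intermediate filaments, and lies on chromosome 13 (mm9, 38243197 to 38290446, plus strand; 24 exons). Dsp measured 66.0, 78.1 and 67.2 CPM in the 3 control libraries and 33.0, 45.4 and 43.5 CPM in the 3 transgenic ones. Every transgenic library was below every control library. The mean was 40.6 ± 6.70 CPM (SD, n = 3) against 70.4 ± 6.66 CPM (SD, n = 3). On the log2 scale the difference was -0.78 (SE 0.20, 95% interval -1.21 to -0.36), with an edgeR adjusted p of 0.715. By p it ranked 7 of 4618 genes, and it stayed between -0.87 and -0.66 in all 13 alternative settings and left-out libraries. Among these, the setting without a filter removed no gene here and repeated the main fit. The difference in Dsp therefore exceeded the spread between these libraries but did not pass the threshold over all genes.

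Prox1, a homeobox transcription factor that keeps granule cell identity, measured 71.9, 89.7 and 69.5 CPM in control libraries and 51.4, 92.1 and 83.0 CPM in transgenic ones. The groups overlapped fully, with the lowest and the highest library both transgenic. The log2 fold change was -0.01, with an interval from -0.44 to 0.41. Calb1, which encodes the calcium-binding protein calbindin, measured 104, 115 and 107 CPM in controls and 114, 106 and 79.0 CPM in transgenic libraries. Only the third transgenic library stood below the control range, and the log2 fold change was -0.13 with an interval from -0.41 to 0.15.

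The ratio of Dsp to Prox1, which does not depend on library scaling, was 0.918, 0.871 and 0.967 in the control libraries. It was 0.642, 0.493 and 0.524 in the transgenic libraries, all below the controls. The mean log2 CPM of the 4 granule cell markers minus that of the 5 CA markers was -0.94, -0.88 and -0.92 in controls and -1.21, -1.02 and -1.18 in transgenic libraries. Without Dsp the same balance was -0.80, -0.77 and -0.77 in controls and -0.86, -0.74 and -0.94 in transgenic libraries, and the groups overlapped. The separation of the groups in this balance was therefore lost when Dsp was left out.

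**Figure D2:**
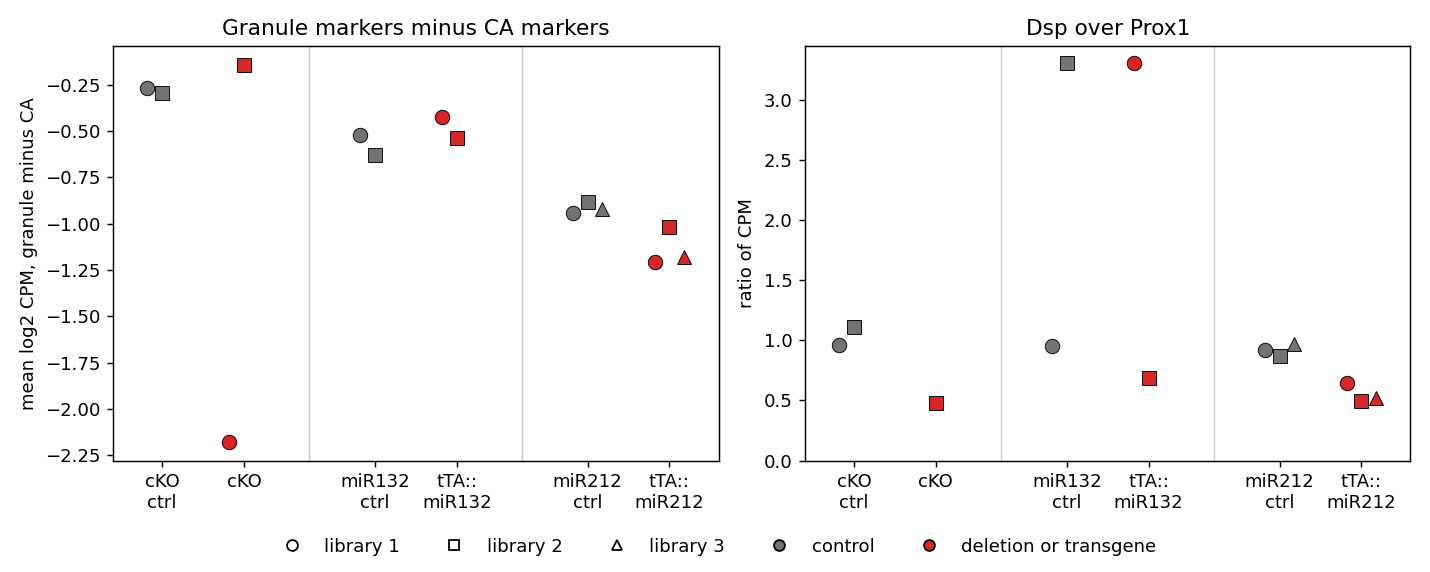
Left, mean log2 CPM of the granule cell markers minus that of the CA markers in each library; right, the ratio of Dsp to Prox1 on an axis from 0, without the deletion library in which Prox1 was at 0. Grey points are controls and red points deletion or transgenic libraries. In the tTA::miR212 part the red points lie below the grey ones in both panels. On the left, deletion library 1 lies at -2.18, with its Prox1 count of 0 included. Without Prox1 its balance was -0.33, against 0.21 and 0.12 in the controls and 0.06 in deletion library 2.

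C1ql3 encodes a secreted C1q-domain protein released at granule cell synapses. It measured 133, 118 and 143 CPM in tTA::miR212 controls and 120, 107 and 99.1 CPM in the transgenic libraries. The first transgenic library lay just above the lowest control. Its fold change on the log2 scale was -0.27 (SE 0.12, edgeR adjusted p = 0.843). Its close relative C1ql2 was not listed in that table. Of the family, Bai3, an adhesion receptor that binds C1q-like proteins, was the other gene tested there, at a log2 fold change of 0.08.

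Among the CA markers of the tTA::miR212 table, Pcp4 and Mpped1 were lower in the transgenic libraries, and Wfs1, Fibcd1 and Grik4 lay close to control. Pcp4, a small regulator of calmodulin, measured 109, 121 and 159 CPM in controls and 107, 105 and 92.4 CPM in transgenic libraries, without overlap. With an edgeR adjusted p of 0.819, its log2 fold change was -0.35 (SE 0.13), and without the third control library it was -0.18. Annotated exons of Pcp4 share 243 bases with Igsf5 on the same strand, so the reads of these genes may have been split or counted for both. Igsf5, named here for that overlap, had a log2 fold change of -0.34 in this table. Mpped1, a metallophosphoesterase domain protein, measured 319.131, 333 and 376 CPM in controls and 319.111, 280 and 296 CPM in transgenic libraries. The highest transgenic library was barely below the lowest control, for a log2 fold change of -0.20 (SE 0.09) at an edgeR adjusted p of 0.843.

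Wfs1, which encodes the endoplasmic reticulum protein wolframin, measured 297, 299 and 287 CPM in controls and 281, 281 and 310 CPM in transgenic libraries. It varied least of the CA1 markers, and the interval of its log2 fold change ran from -0.19 to 0.15. Fibcd1, a membrane receptor with a fibrinogen C-terminal domain, measured 201, 204 and 148 CPM in controls and 144, 201 and 191 CPM in transgenic libraries. A single low library in each group, control 3 and transgenic 1, set its range, and the log2 fold change was -0.04. Grik4, a kainate-type glutamate receptor subunit, measured 77.0, 84.3 and 64.9 CPM in controls and 82.1, 84.5 and 81.0 CPM in transgenic libraries, with a log2 fold change of 0.13. It was the only one of the 9 markers tested with a fold change above 0.

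In this comparison, 8 of 9 markers were below 0 and 1 above, with a median log2 fold change of -0.13 against 0.003 over all genes. Dsp, Mpped1 and Pcp4 were the 3 markers whose transgenic libraries were all below the controls, and 5.93% of all genes did the same. None was higher without overlap, a share of 5.46% over all genes. With an unadjusted edgeR p under 0.05, 4 markers passed (Dsp, C1ql3, Mpped1 and Pcp4), against 5.65% or 261 of all genes tested. DESeq2 and limma-voom also called 0 genes after adjustment, and without transgenic library 1 edgeR called 18 genes, none a marker. In the authors' deposited table, 0 of the 9 markers had a q-value under 0.05, a share of 0.0598% over its transcripts.

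**Figure D3:**
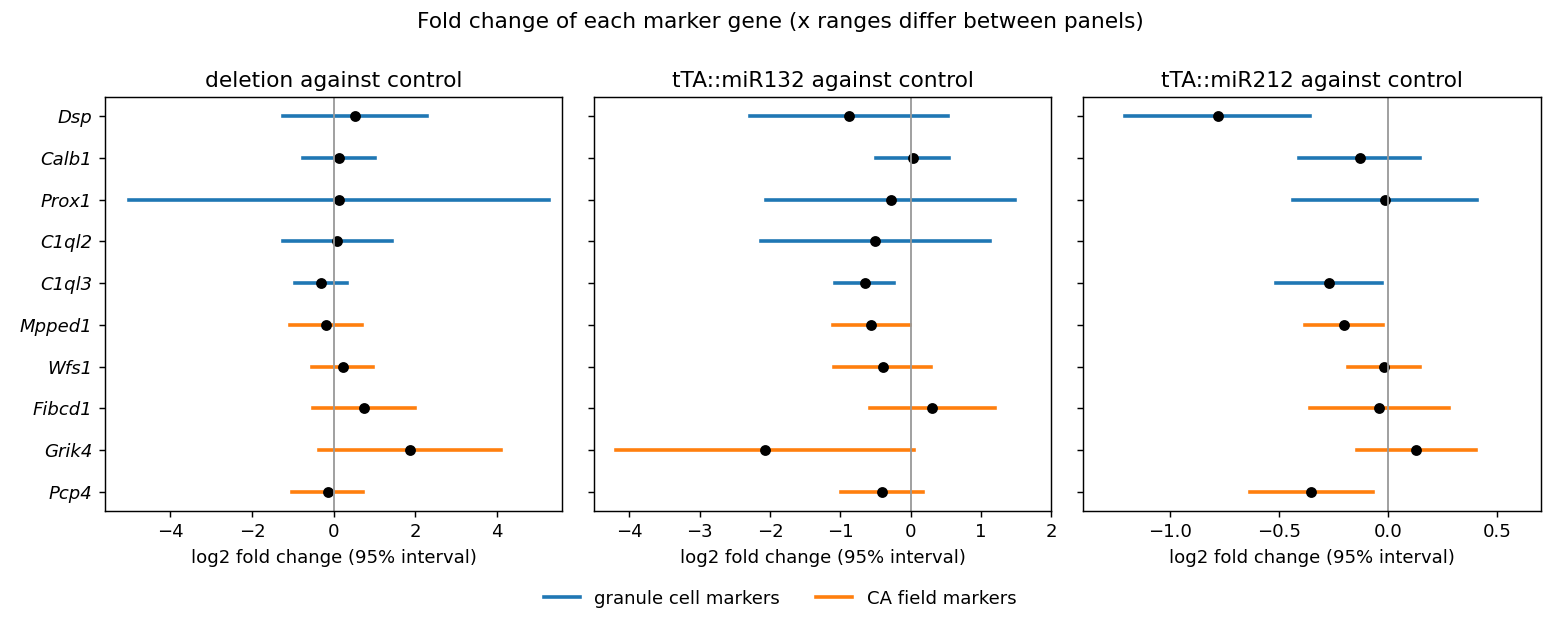
Log2 fold change of each marker (black point) with its 95% interval from edgeR (line, blue for granule cell and orange for CA field markers) in the 3 comparisons, whose horizontal ranges differ. The Dsp interval in tTA::miR212, -1.21 to -0.36, excludes 0, as does that of C1ql3 in tTA::miR132, -1.07 to -0.23. Those of C1ql3, Mpped1 and Pcp4 in tTA::miR212 and of Mpped1 in tTA::miR132 also exclude 0. The intervals are not adjusted for the number of genes tested.

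In tTA::miR132 hippocampus C1ql3 was the marker with the smallest p. It lies on chromosome 2 (mm9, 12923514 to 12932491, minus strand). C1ql3 measured 414 and 469 CPM in the control libraries and 267 and 295 CPM in the transgenic ones. Both transgenic libraries were clearly below both controls, and the libraries of each group were close to each other. The mean was 281 ± 19.3 CPM (SD, n = 2) against 441 ± 39.4 CPM (SD, n = 2). This is a log2 fold change of -0.65 (SE 0.19, 95% interval -1.07 to -0.23), with an edgeR adjusted p of 0.997 and rank 14 of 10734 genes by p. DESeq2 gave C1ql3 an adjusted p of 0.00904 and called 39 genes, 0.363% of those tested, while limma-voom gave it an adjusted p of 0.599 and called 2 genes (0.0186%). Leaving out each library in turn moved the C1ql3 fold change between -0.74 and -0.55. In the authors' deposited table the q-value of C1ql3 was 4.73e-16. There 3 of the 10 markers (Dsp, Prox1 and C1ql3) had a q-value under 0.05, against 53.1% of all genes.

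C1ql2, the other C1q-like marker of granule cells, measured 16.8 and 50.5 CPM in tTA::miR132 controls and 31.4 and 16.0 CPM in transgenic libraries. The controls lay far apart and the groups overlapped (log2 fold change -0.50, interval -2.13 to 1.12). The coding sequences of these paralogs are alike over short stretches, and a read inside such a stretch could come from either gene. The longest run shared by their annotated transcripts is 38 coding bases, at 122238199 to 122238236 on chromosome 1 (C1ql2, plus strand) and 12932029 to 12932066 on chromosome 2 (C1ql3, minus strand; both mm9).
C1ql2 and C1ql3: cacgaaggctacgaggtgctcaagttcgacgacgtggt
The C1ql3 transcript is 2476 bases long, so the run is a small part of it. Of the 7 genes of the C1q-like and cerebellin family tested in this table, counting both markers and the receptor Bai3, 4 were below 0 and 3 above. Cbln4 stood at -1.02 (SE 0.70) and C1ql1 at -2.01 (SE 1.42), and Cbln4 turned to 0.33 without control library 2. Bai3 was at 0.07.

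Dsp measured 24.9 and 76.2 CPM in tTA::miR132 controls and 34.2 and 20.7 CPM in transgenic libraries. The second control library alone was high. The fold change of -0.88 (log2, SE 0.64) became 0.15 without that library. Prox1 measured 26.2 and 23.0 CPM in controls and 10.3 and 30.1 CPM in transgenic libraries, with a single low value in the first transgenic library. Calb1 was level, at 214 and 209 CPM in controls and 238 and 193 CPM in transgenic libraries (log2 fold change 0.03, interval -0.50 to 0.55). The ratio of Dsp to Prox1 was 0.950 and 3.31 in controls and 3.31 and 0.689 in transgenic libraries, so each group held a high and a low library.

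Of the CA markers, Grik4 had the largest fold change in tTA::miR132, and it rested on the second control library. Grik4 measured 10.3 and 55.9 CPM in controls and 6.65 and 9.04 CPM in transgenic libraries. On the log2 scale this was -2.08 (SE 0.97) at an edgeR adjusted p of 0.997, and -0.38 without control library 2. Grik5, another kainate receptor subunit, had a log2 fold change of -0.64 and the accessory subunit Neto1 one of 0.81. Both had an edgeR adjusted p of 0.997. Without control library 2 these fold changes became -0.16 and 0.47. Over the 7 kainate receptor genes, Grik4 included, 4 were below 0 and 3 above.

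Mpped1 measured 297 and 394 CPM in tTA::miR132 controls and 187 and 283 CPM in transgenic libraries, without overlap (log2 fold change -0.56, SE 0.25). Wfs1 measured 121 and 184 CPM in controls and 112 and 119 CPM in transgenic libraries. Pcp4 measured 184 and 285 CPM in controls and 175 and 177 CPM in transgenic libraries. For Wfs1 and Pcp4 the first control library lay close to the transgenic ones and the second stood well above. Without control library 2 their fold changes moved from -0.40 to -0.06 and from -0.41 to -0.05. Fibcd1 went the other way, at 87.5 and 67.5 CPM in controls and 125 and 66.9 CPM in transgenic libraries (log2 fold change 0.31).

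With tTA::miR132, 8 of 10 markers were below 0 and 2 above, with a median of -0.46 against -0.002 over all genes. C1ql3, Mpped1, Wfs1, Grik4 and Pcp4 were the 5 markers without overlap, all lower in transgenic libraries, and 16.1% of all genes were lower without overlap. In either direction the share over all genes was 33%. C1ql3 and Mpped1 were the 2 markers with an unadjusted edgeR p under 0.05, a share that was 2.82% (303 genes) over all genes. Without control library 1 edgeR called 111 genes, none a marker. The part of control library 2 in these values was not tested beyond leaving it out.

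In the deletion the markers scattered around their control levels, and the differences of Grik4, Fibcd1, Dsp and C1ql3 rested largely on the first deletion library. Without that library the log2 fold changes of Prox1 (0.13 to 1.13), Pcp4 (-0.14 to -0.66) and Calb1 (0.13 to -0.38) grew in size instead. Grik4, on chromosome 9 (mm9, 42328519 to 42752454, minus strand), measured 8.19 and 17.0 CPM in controls and 72.5 and 19.4 CPM in deletion libraries. The second deletion library was close to the higher control, and the first was far above all others. At an edgeR adjusted p of 0.999, the log2 fold change was 1.87 (SE 0.91), and it became 0.63 without deletion library 1. Fibcd1 had the same shape, at 90.2 and 95.8 CPM in controls and 230 and 82.7 CPM in deletion libraries, and its fold change moved from 0.75 to -0.17 without that library.

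Prox1 had counts of 170 and 243 in the controls and of 0 and 510 in the deletion libraries, which is 17.8, 29.5, 0 and 51.6 CPM. The lowest and the highest library were thus both deletion libraries. In library 1 a count of 0 allows a level of up to 0.330 CPM (3 counts, counting error only). Of genes with a mean of 200 to 400 counts in the other libraries, 8.22% (188 of 2287) were also at 0 in this library, against 0.045% to 0.177% in the other 3 libraries of the table. A level of 0 for Prox1 in that library is therefore shared by many genes that its neighbours detect well.

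The other granule cell markers overlapped between deletion and control. Dsp measured 17.2 and 32.8 CPM in controls and 46.8 and 24.9 CPM in deletion libraries, with a log2 fold change of 0.52 that became -0.00035 without deletion library 1. C1ql2 measured 32.9 and 66.8 CPM in controls and 55.2 and 50.7 CPM in deletion libraries, both inside the control range. C1ql3 measured 429 and 472 CPM in controls and 290 and 437 CPM in deletion libraries (log2 fold change -0.31). The second deletion library lay inside the control range for C1ql3, and without deletion library 1 the value was -0.04. Calb1 measured 320 and 232 CPM in controls and 390 and 212 CPM in deletion libraries, which enclose the control range.

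Of the remaining CA markers in the deletion table, Wfs1 measured 102 and 141 CPM in controls and 148 and 135 CPM in deletion libraries. Mpped1 measured 220 and 332 CPM in controls and 177 and 307 CPM in deletion libraries, and Pcp4 213 and 257 CPM in controls and 277 and 149 CPM in deletion libraries. None of these separated the groups. In all, 7 of 10 markers were above 0 and 3 below in the deletion, with a median of 0.13 against -0.03 over all genes. Grik4 was the 1 marker higher without overlap, and 14.7% of all genes were higher without overlap (32.5% in either direction). No marker had an unadjusted edgeR p under 0.05, and 88 genes (0.839%) did. DESeq2 called 5 genes (0.0477%) and limma-voom 0, none of them a marker. Without deletion library 2, edgeR called 4527 of 10537 genes (43%), and 5 of the 10 markers (Prox1, C1ql3, Mpped1, Fibcd1 and Grik4) were among them, a share near that of all genes. In that fit library 1 stood alone against the controls, the spread came from the controls only, and the median log2 fold change of all genes was -0.13. In the authors' deposited table, 6 of the 10 markers had a q-value under 0.05, as did 54.3% of all its genes.

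C1ql3, Mpped1 and Pcp4 were the 3 of 9 markers that stood below 0 in all 3 comparisons, as did 13.1% of the 4152 genes tested in every table. The comparisons have separate controls. For C1ql3 the log2 fold changes were -0.31 in the deletion, -0.65 in tTA::miR132 and -0.27 in tTA::miR212, and the sign was kept in every alternative and left-out library of each comparison. For Mpped1 they were -0.19, -0.56 and -0.20, and the sign of the deletion value turned when a library was left out. For Pcp4 they were -0.14, -0.41 and -0.35, again with a sign in the deletion that depended on the library. Dsp stood at 0.52, -0.88 and -0.78. Between the transgenic comparisons, 6 of 9 markers were below 0 in both, and 26.9% of all 4197 genes tested in both were.

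Relatives of the markers gave a background for single genes. In the desmosome family 7 genes were tested in the deletion, 5 in tTA::miR132 and 2 in tTA::miR212, and none was called. Pkp4, a plakophilin relative at cell junctions, had a log2 fold change of 0.08 in tTA::miR212 beside the -0.78 of Dsp. Jup, which encodes plakoglobin and binds desmoplakin, was not among the tTA::miR212 genes tested and stood at -2.15 (SE 0.84) in tTA::miR132, or -1.25 without control library 2. Among calcium buffers and calmodulin regulators other than Calb1 and Pcp4, 6 of 7 genes were below 0 in tTA::miR212, against 49.0% of all genes. Nrgn, a calmodulin-binding protein of dendrites, was at -0.33 (SE 0.08), while Pcp4l1, a relative of Pcp4, was at -0.02. Mpped2, the relative of Mpped1, had a log2 fold change of 1.30 (SE 0.51) in the deletion and 0.52 (SE 0.35) in tTA::miR132. Without deletion library 1 the former was 0.41, and Mpped1 itself was then at 0.16.

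Markers of the same fields that are not among the 10 were described in the same way, and none was called in any comparison. Of other granule cell markers, 9 of 13 were below 0 in the deletion, with a median log2 fold change of -0.40. The median of the 10 markers there, CA markers included, was 0.13. In tTA::miR132, 5 of 13 other granule cell markers were below 0, with a median of 0.15, where that of the 10 markers, CA markers included, was -0.46. In tTA::miR212, 3 could be tested, with a median of -0.07. Markers of immature granule cells and neurogenesis were above 0 for 6 of 9 genes in the deletion, with a median of 0.38. In tTA::miR132 5 of 10 were above 0 (median 0.009), and in tTA::miR212 1 of 3 (median -0.09). Of other CA1 markers, 6 of 9 were below 0 in the deletion (median -0.47) and 4 of 8 in tTA::miR132 (median -0.04). In tTA::miR132 the 8 summed to 1200 to 1214 CPM in controls and 1058 to 1099 CPM in transgenic libraries, without overlap. As single genes, 3 of the 8 were lower without overlap there, against 16.1% of all genes. In tTA::miR212, 5 of 6 were below 0, with a median of -0.21. Nov was at -0.30 (SE 0.10), the kinase gene Itpka at -0.25 (SE 0.09) and the transcription regulator Lmo4 at -0.25 (SE 0.10). The summed level of these 6 genes was 960 to 1013 CPM in controls and 818 to 907 CPM in transgenic libraries, without overlap. As single genes, 2 of the 6 were lower without overlap in tTA::miR212, against 5.93% of all genes. That share is one of single genes and does not apply to a sum. Of other CA3 markers, 3 of 4 were above 0 there, with Nptx1 at -0.18 and Cpne4 at 0.26. Other CA2 markers were 2, Rgs14 at 0.09 and Necab2 at 0.00. In the deletion the medians were 0.35 for 8 other CA3 markers and -0.37 for 7 other CA2 markers, and in tTA::miR132 they were 0.20 and 0.12 for 7 of each.

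**Figure D4:**
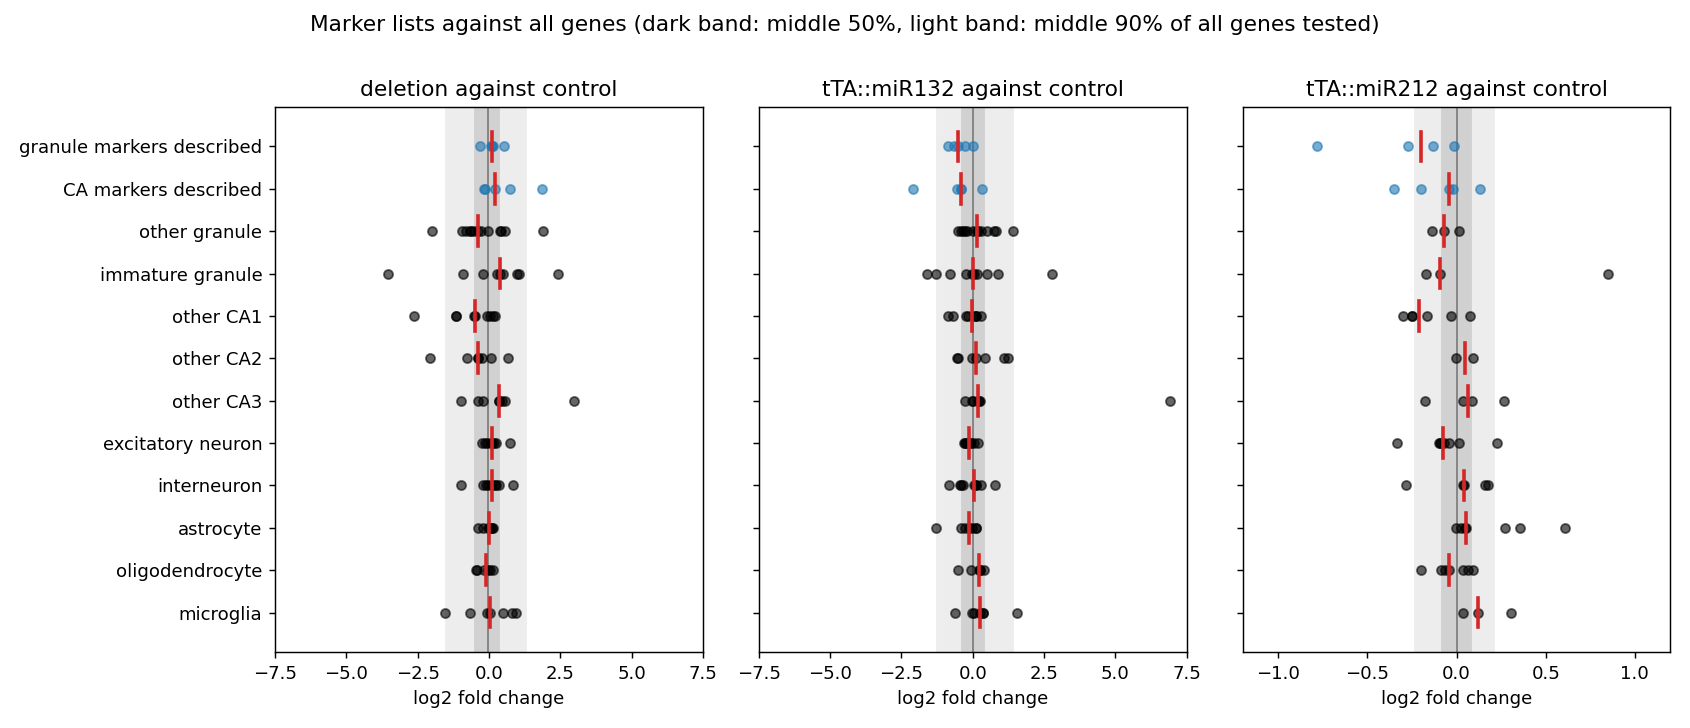
Log2 fold change of every gene of each marker list (points, blue for the 10 markers described) with the median of the list (red bar), over the middle 50% (dark band), middle 90% (light band) and median (grey line) of all genes tested. The horizontal range is narrower for tTA::miR212, where Dsp at -0.78 is the leftmost point.

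Levels of other cell types were read beside these values, and their part in them was not tested. In tTA::miR212 6 of 7 astrocyte markers were above 0, with Aqp4 at 0.61, Gfap at 0.36 and Gja1 at 0.27 (edgeR, none called), and the summed level was 5922 to 6245 CPM in controls and 5607 to 7714 CPM in transgenic libraries. Interneuron markers summed to 1244 to 1351 CPM and 1283 to 1332 CPM, and oligodendrocyte markers to 6353 to 6585 CPM and 5957 to 6457 CPM. Thalamus markers were above 0 for 3 of 3 genes (sums of 138 to 170 CPM and 152 to 269 CPM). Microglia markers were also above 0 for 3 of 3 genes (281 to 309 CPM and 308 to 366 CPM). The 2 choroid plexus markers tested summed to 284 to 838 CPM and 47.3 to 852 CPM, with the lowest value in transgenic library 2. General markers of excitatory neurons were below 0 for 6 of 8 genes, with sums of 12134 to 12924 CPM and 11347 to 12305 CPM. In tTA::miR132 the general excitatory markers were below 0 for 6 of 8 genes, with sums of 9728 to 10155 CPM in controls and 9017 to 9305 CPM in transgenic libraries, without overlap. Oligodendrocyte markers were above 0 for 4 of 6 genes there, with sums of 3598 to 3852 CPM and 4247 to 4424 CPM, also without overlap. Over all genes, 33% did not overlap in either direction in tTA::miR132, a share of single genes and not of sums. Thalamus markers were below 0 for 5 of 5 genes (sums of 111 to 218 CPM and 77.7 to 118 CPM), and choroid plexus markers for 5 of 8 (4053 to 5271 CPM and 2873 to 4159 CPM). Astrocyte markers summed to 4841 to 5714 CPM and 4932 to 4937 CPM, and interneuron markers to 2164 to 2223 CPM and 2138 to 2525 CPM. Microglia markers summed to 297 to 453 CPM and 381 to 478 CPM. In the deletion the 8 choroid plexus markers were all below 0. Their sums were 4429 to 4960 CPM in controls and 527 to 1714 CPM in deletion libraries. Of the 8, 5 were at 0 in deletion library 1, which held 1047 genes at 0, and 1 in deletion library 2. As single genes, 7 of the 8 were lower without overlap in the deletion, against 17.8% of all genes. An unadjusted edgeR p under 0.05 was found for 4 of the 8, against 0.839% of all genes. Excitatory markers summed there to 8643 to 9487 CPM and 9569 to 11287 CPM. Microglia markers summed to 371 to 400 CPM and 416 to 500 CPM, so neither list overlapped between the groups. Over all genes, 32.5% did not overlap in either direction in the deletion, again a share of single genes. Oligodendrocyte markers summed to 4716 to 5005 CPM and 3642 to 5202 CPM, and thalamus markers to 98.5 to 206 CPM and 79.8 to 160 CPM. Choroid plexus tissue lies in the ventricle next to the hippocampus, and its part in these values was not tested.

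Per length of transcript, in the tTA::miR212 controls, Pcp4 had the highest level, at 202 ± 40.5 CPM per kilobase (SD, n = 3), and Dsp the lowest, at 7.39 ± 0.70. Mpped1 followed at 105, Wfs1 at 82.6, C1ql3 at 52.9, Fibcd1 at 38.8, Calb1 at 25.8, Prox1 at 18.6 and Grik4 at 12.8 CPM per kilobase. The ranges of neighbours in this order did not overlap over the 3 control libraries. The Pcp4 value also carries the exon bases shared with Igsf5. Dsp shares 360 exon bases with Gm10129 and Prox1 133 with Gm17566, both on the opposite strand, and the sources used here do not say that counting used strand.

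The genes whose log2 CPM followed each marker most closely over the 6 libraries of the tTA::miR212 table are given as a description. They share libraries and depth with it, and 23 to 118 of 4618 genes reached a Pearson r of 0.9 with a given marker. For Dsp they were Enpp5 (0.97), Sprn (0.96) and Cdkn1b (0.96). For Prox1 they were Arpc5, Grm5 and Limd2, with 0.98 or above, and for Calb1 Eml5, Slc8a2 and Erf, all at 0.98. For C1ql3 they were Smyd2, 6330527O06Rik and Zdhhc8, and for Mpped1 Pitpnm3, AC122821.1 and Bcl2l1. For Wfs1 they were Rps14, Rap2b and Slc25a23, for Fibcd1 Wbscr17, Gabra5 and Slit3, for Grik4 Asap2, Ptchd2 and Pdia6, and for Pcp4 Eno2, Cds1 and Dnajb2. No marker was among the closest 3 genes of another. Between markers, the highest r were 0.89 for Mpped1 with Pcp4, 0.84 for C1ql3 with Mpped1, 0.83 for Prox1 with Fibcd1 and 0.82 for C1ql3 with Pcp4. Dsp had an r of 0.47 with Prox1, 0.24 with Calb1 and 0.50 with C1ql3. Calb1 had an r of 0.58 with C1ql3 and -0.29 with Prox1, and Prox1 one of -0.45 with C1ql3. Over 6 libraries these r are imprecise, so they do not settle whether the granule cell markers vary as a unit.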

How the data were processed

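Hippocampal RNA was analysed in 14 libraries of 6 groups. The values are whole-number read counts per gene (deletion, tTA::miR132) or transcript (tTA::miR212) as the authors deposited them, not normalized, per the file headers and values. Reads were aligned with Bowtie 0.12.7 to mm9, per the series design text, with a counting tool and annotation not given in the sources used here. Deposited q-values of the authors (a p-value adjusted by them) were read for the markers only, and 14 columns of normalized values were not used. A header line repeated inside the deletion table (1 line) was dropped, and of several transcripts of a symbol the one with the highest mean count was used. Mpped1 and Grik4 had such further transcripts. CPM used TMM-scaled library sizes. Tests were edgeR 4.0.16 quasi-likelihood (filterByExpr, Benjamini-Hochberg, adjusted p under 0.05) in R 4.3.3, with DESeq2 1.42.0, limma 3.58.1 (voom), other scalings, no filter, a replicate block and left-out libraries as alternatives. The scripts were tested on simulated data. Similar genes are the 3 with the highest Pearson r of log2 CPM (prior count 2) among genes of mean CPM 20 or more. All 10 markers are described. Of each other list at most 3 genes, those with the lowest p in a comparison, and any gene of a family list, are named. Library numbers come from the column names and tie no library to a sample. Depth per library is given with the results. The start coordinates of RefSeq rows were raised by 1 base. Markers and lists were chosen with earlier results of these data known.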

Additional observations from a re-analysis of the deposited data

How the results depend on the processing

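The sign of C1ql3 was kept in every setting in all 3 comparisons, and so was that of Dsp, Mpped1, Pcp4 and Grik4 in tTA::miR212. In edgeR 0 genes were called in each comparison; DESeq2 called 5 in the deletion and 39 in tTA::miR132, and limma-voom 2 in tTA::miR132. A replicate block on the library number called 1 gene in tTA::miR132 and 1 in tTA::miR212, neither a marker. Whether same-numbered libraries were paired is not stated in the labels. Same-numbered deviations from the group means correlated at 0.01 in the deletion, at 0.01 in tTA::miR132 and at -0.08, 0.02 and -0.03 in tTA::miR212. With 2 libraries per group there is a single such r per comparison. An r over all genes cannot exclude a pairing that affects part of them. Leaving out each library gave 1 to 4527 called genes in the deletion, 0 to 111 in tTA::miR132 and 0 to 18 in tTA::miR212. The 4527 (43% of 10537 genes, 5 of the 10 markers among them) arose without deletion library 2, which leaves library 1 as the only deletion library and assumes that it varies like the controls. The 111 arose without tTA::miR132 control library 1 and the 18 without tTA::miR212 transgenic library 1. In the deletion the log2 fold change of Prox1 was -3.55 with limma-voom and -3.04 with the replicate block, against 0.13. Over left-out libraries the log2 fold changes that changed sign ranged as follows. In the deletion they were -0.00035 to 1.06 for Dsp, -0.38 to 0.51 for Calb1, -10.72 to 1.13 for Prox1, -0.33 to 0.69 for C1ql2, -0.64 to 0.16 for Mpped1, -0.17 to 1.31 for Fibcd1 and -0.66 to 0.24 for Pcp4. In tTA::miR132 they were -1.47 to 0.15 for Dsp, -0.14 to 0.17 for Calb1, -1.25 to 0.29 for Prox1, -1.09 to 0.50 for C1ql2 and -0.21 to 0.69 for Fibcd1. In tTA::miR212 they were -0.23 to 0.013 for Calb1, -0.18 to 0.19 for Prox1, -0.069 to 0.0065 for Wfs1 and -0.18 to 0.086 for Fibcd1. The cause of these changes was not tested. Of all settings for single markers, 84 of 100 in the deletion, 94 of 100 in tTA::miR132 and 111 of 119 in tTA::miR212 kept direction and side of the threshold. The tTA::miR212 count includes the setting without a filter, which was the same fit as the main one there. With 2 libraries per group, the 95% intervals of all 10 markers in the deletion and of all but C1ql3 and Mpped1 in tTA::miR132 include 0.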
